A study of Mus musculus with 384 samples.

Results

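Csf3r encodes the receptor for granulocyte colony-stimulating factor (G-CSF). It was measured by the assay named CD114, which is 1 of the 96 assays read in single common lymphoid progenitors (CLPs) of mouse bone marrow. The gene was chosen by measured values, namely in which cells its product was found and how late its cycles were, so its share of cells and its cycle values by plate are given as a description, with no test. Whether its level went with the product of another gene was not used in the choice and was tested. CLPs are rare marrow cells from which B cells, T cells, natural killer cells and some dendritic cells develop. The cells came from wild-type C57/Bl6 mice and were sorted as Lin- B220- Flt3+ Il7r+ Kitlow Sca1low. The 384 wells lay on 4 plates, called P0 to P3. Each plate held 90 wells with 1 cell, 4 wells in which the reverse transcriptase was omitted (no-RT), 1 well with 10 cells and 1 well with 20 cells. All wells share strain, genotype and gate, and there was no treatment. The labels give neither the age nor the number of the mice, and do not say that the plates came from separate animals. The p-values below therefore measure the spread between these plates, and that spread may be technical.

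The G-CSF receptor is a single-chain cytokine receptor that forms a homodimer on binding its ligand and signals through JAK kinases and STAT3. It is best known from the neutrophil lineage, where G-CSF drives the growth, survival and release of granulocytes, and it is also present on early marrow progenitors. Commitment to the B lineage runs through the transcription factors Ebf1 and Pax5, and the surface protein Ly6d marks CLPs that have started on that path. Spi1 (PU.1) and Cebpa, transcription factors of myeloid cells, are known regulators of Csf3r.

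The panel held assays for Spi1, Cebpa and Ebf1, so the 250 bases upstream of the Csf3r start are shown, with the matches to their simplified core motifs in capitals. The stretch lies at chr4:126024409-126024658 on the plus strand of GRCm38.p6 and was taken from RefSeq.
Csf3r: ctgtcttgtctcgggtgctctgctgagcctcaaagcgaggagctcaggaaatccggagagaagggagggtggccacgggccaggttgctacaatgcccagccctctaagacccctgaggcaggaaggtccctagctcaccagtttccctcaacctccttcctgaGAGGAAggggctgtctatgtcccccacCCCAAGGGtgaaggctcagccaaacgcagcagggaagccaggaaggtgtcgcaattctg
On both strands, the PU.1 core GAGGAA had 1 match, which starts 86 bases before the gene's start. The EBF motif CCCNNGGG, which reads the same on both strands, had 1 match, 59 bases before the start. The C/EBP motif TTNNGNAA had 0 matches. The matches do not overlap. Such short motifs are common: among 32851 promoter stretches of the same length, 23.3% held the PU.1 core, 11.8% the EBF motif and 36.8% the C/EBP motif. A match is a description of the letters and not evidence of binding, and the absence of one says nothing about the factor.

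Each value is a Ct, the amplification cycle at which the product crossed the detection threshold. A lower Ct means more cDNA, 1 cycle corresponds to a doubling at full efficiency, and the value 40 stands for no product. A product was called at a Ct below 28. Of the 360 single-cell wells, 13 were left out for low yield, and 0 of these had a Csf3r product. Kept cells had a product of Kit, the sort marker with a matched assay, in 97.4% ± 1.09 (mean ± SD over 4 plates, as for all shares below). Cd3e, a T cell receptor component, had no product in any kept cell, nor did Cd2. Of the other T lymphoid genes measured, Cd8a was found in 2 cells and Cd5 in 9.78% ± 6.25. Cd4 was found in 10.9% ± 3.54, Gata3 in 14.1% ± 2.42 and Notch1 in 98.3% ± 0.66. On the panel 8 assays had no product in any kept cell, and whether these assays work in such wells was not tested.

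A Csf3r product was found in nearly as many kept cells as it was missing from. It was found in 37 of 86 cells on P0, 45 of 87 on P1, 45 of 87 on P2 and 42 of 87 on P3. These are shares of 43.0% (exact 95% binomial interval 32.4% to 54.2%), 51.7% (40.8% to 62.6%), 51.7% and 48.3% (37.4% to 59.2%), with a mean of 48.7% ± 4.11. The intervals overlap and cover counting error only. None of the 16 no-RT wells had a Csf3r product, which allows a share of up to 18.8% there. Of the other 95 assays, 41 were found in a higher share of cells and 54 in a lower share.

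In cells with a product, the Ct of Csf3r was late for this panel but mostly well below the limit of 28 set for a product. That limit is a setting, and the Ct at which this assay begins to miss transcripts is not known. On P0 it ran from 16.6 to 25.5 with a median of 18.3, on P1 from 16.9 to 22.1 with a median of 20.5, on P2 from 16.2 to 22.2 with a median of 19.6, and on P3 from 17.0 to 22.6 with a median of 19.1. The plate medians averaged 19.4 ± 0.940, and the SD among cells of a plate was 1.20 to 1.49 cycles. The medians of P0 and P1 lay further apart than the SD among cells of a plate, so levels are compared below only within a plate. The latest cell, at 25.5 on P0, stood alone: the next was at 22.6, and no cell lay between 28 and 40. Moving the limit to 26 or 24 cycles therefore changed the mean share only to 48.7% and 48.4%. Of the 73 assays found in at least 5% of cells, 6 had a later median Ct than Csf3r and 66 an earlier one. Assays differ in length and efficiency, so this order is not one of abundance.

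**Figure D1:**
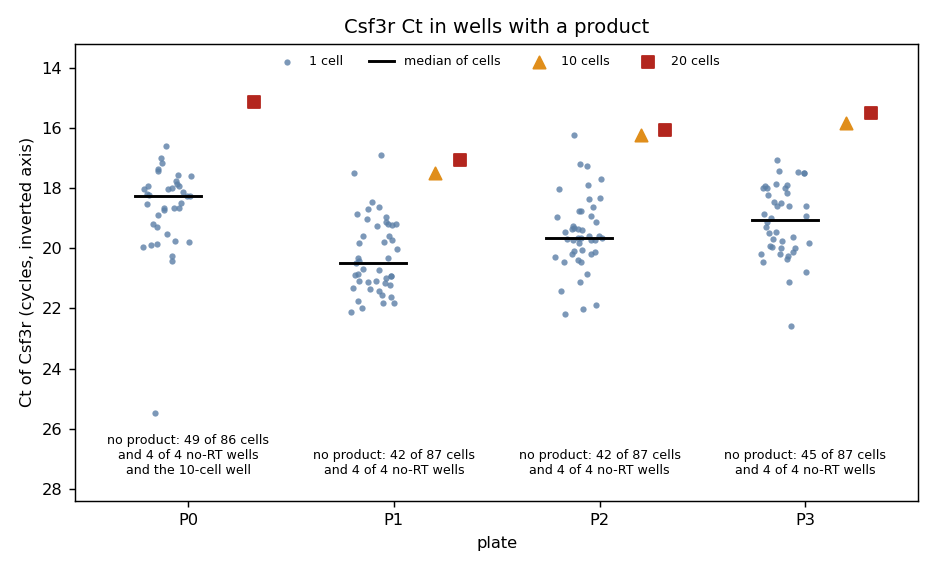
Csf3r Ct (vertical axis, in cycles, inverted so that more cDNA is higher) by plate, for wells with a product; small points are single cells, bars their medians, triangles the 10-cell wells and squares the 20-cell wells. The medians lie at 18.3, 20.5, 19.6 and 19.1, the pooled wells lie above them, and the numbers of wells without a product are written at the bottom.

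Wells with several cells gave earlier cycles. The 20-cell wells were at 15.1, 17.1, 16.1 and 15.5 on P0 to P3 (mean 15.9 ± 0.846, n = 4), and the 10-cell wells at 17.5, 16.2 and 15.8 on P1 to P3 (mean 16.5 ± 0.863, n = 3). The 10-cell well of P0 had no Csf3r product, and it had a product for only 29 of the 96 assays, against 68 to 71 in the other 10-cell wells. Plates ranked P0, P3, P2, P1 from the earliest to the latest Ct both in the medians of cells and in the 20-cell wells. The reference genes did not follow that order: their median Ct was 12.2, 12.5, 12.6 and 13.0 on P0 to P3. The 20-cell wells were 3.42 ± 0.213 cycles earlier than the median cell with a product. When the linear values of all kept cells of a plate were averaged and multiplied by the number of cells, the predicted Ct minus the measured Ct was -0.33 ± 0.36 for the 20-cell wells (n = 4) and 0.26 ± 0.40 for the 10-cell wells (n = 3). These differences are no larger than their spread between plates. The 10-cell wells were later than the 20-cell wells of their plate by 0.304 ± 0.122 cycles (n = 3), where a doubling of cells would give 1 cycle.

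Cells with and without a Csf3r product were next compared within each plate. These are classes made from the readout and not groups of the study. Their yield was similar in number of products: cells with Csf3r had a product for a median of 43, 41, 42 and 41.5 of the other assays on P0 to P3, and cells without it for 43, 42, 42 and 42. The mean difference was -0.375 ± 0.479 (exact two-sided sign-flip permutation test over 4 plates, p = 0.5). The mean level of their 4 reference genes, Atp5a1, Tfrc and Hprt among them, was slightly higher. The level, taken as 28 minus Ct, averaged 15.38 ± 0.24 in cells with Csf3r and 15.16 ± 0.26 in cells without. The difference of 0.221 ± 0.0647 was in the same direction on 4 of 4 plates (exact sign-flip permutation test, p = 0.125, the smallest value that 4 plates allow). Tfrc on its own differed by -0.05 ± 0.22, with both signs among plates.

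Csf3r was found less often in cells with Ebf1, Ly6d, Pax5 or Gfra2, and no gene passed the test for being found with it. Co-detection of a pair was measured as the log2 odds ratio within a plate, which is above 0 when the products occur in the same cells more often than their shares predict. It was fitted with limma over all 1176 pairs of 49 genes, with Benjamini-Hochberg adjustment. Of the 48 pairs that include Csf3r, 4 passed an adjusted p of 0.05 on the negative side and 0 on the positive side; at an unadjusted p of 0.05, 10 were negative and 5 positive. In the whole panel 4.59% of pairs passed, 2.98% positive and 1.62% negative. The median log2 odds ratio was 0.20 over the pairs of Csf3r and 0.11 over all pairs. The negative pairs were known when the gene was chosen. Pairs of either sign rest on the cells in which its product was found, which were used in the choice. The p-values of the pairs with Csf3r are therefore not independent evidence.

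Ebf1, which starts the B lineage programme, was found in 55.9% ± 4.29 of cells with Csf3r and in 90.9% ± 6.65 of cells without. It was missing in 75 cells of the first class and in 16 of the second. Its log2 odds ratios with Csf3r were -3.19, -3.83, -1.96 and -3.06 on P0 to P3, negative on every plate, with a mean of -3.01 ± 0.78 (limma, adjusted p = 0.00382). Ly6d was found in 52.0% ± 10.2 of cells with Csf3r and 87.0% ± 4.19 of cells without, and was missing in 80 and 23 cells. Its log2 odds ratio averaged -2.57 ± 0.67 (limma, adjusted p = 0.00863). Pax5, which fixes B lineage identity, was found in 15 cells with Csf3r and 75 without, 8.77% ± 4.50 against 42.1% ± 5.11, where 43.8 cells with both products would follow from the shares on each plate. Its log2 odds ratio averaged -2.88 ± 0.97 (limma, adjusted p = 0.00816). These are the 3 B lymphoid genes that entered, of 8 matched by name on the panel. Since their pairs were known beforehand, their count supports nothing further. Of the others, Lef1 was found in 0 cells with Csf3r and in 6 without, and Spib in 1 and 6. Bcl11a and Cd24a were found in nearly all cells of both classes, and Cd24a also in 13 of 16 no-RT wells. The list also held Foxo1 and Tcf3, but the assays named FOX01 and TCF3E2A were matched to no gene and are not counted. Their log2 odds ratios with Csf3r averaged -1.01 ± 0.76 and 0.47 ± 0.43 (limma, adjusted p = 0.282 and 0.655).

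Gfra2, a co-receptor for ligands of the GDNF family, showed the lowest value. It was found in 14 cells with Csf3r and in 73 without, 8.18% ± 5.76 against 40.8% ± 5.61, where 42.1 cells with both would follow from the shares. Its log2 odds ratios were -3.42, -4.35, -1.38 and -2.91, with a mean of -3.02 ± 1.24 (limma, adjusted p = 0.00863). P2 gave the value nearest to 0 for Gfra2 and for each of the 3 B lineage genes. Without P1 only Ebf1 passed, and without P3 only Ebf1 and Pax5. With the ordinary standard error of each pair in place of limma's shared one, none of the 4 passed.

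The next gene in this order with the same sign on all plates was Klrb1c, which encodes the natural killer receptor NK1.1. It was found in 13 cells with Csf3r and 33 without, with a log2 odds ratio of -1.64 ± 1.12 (limma, adjusted p = 0.103). Ly86 (MD-1), the partner of the surface protein Cd180, had -1.50 ± 0.48 (limma, adjusted p = 0.0723), while Cd180 itself had 0.57 ± 0.70. Bst1, an ectoenzyme that acts on NAD, had -1.64 ± 1.47 and was positive on P2.

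**Figure D2:**
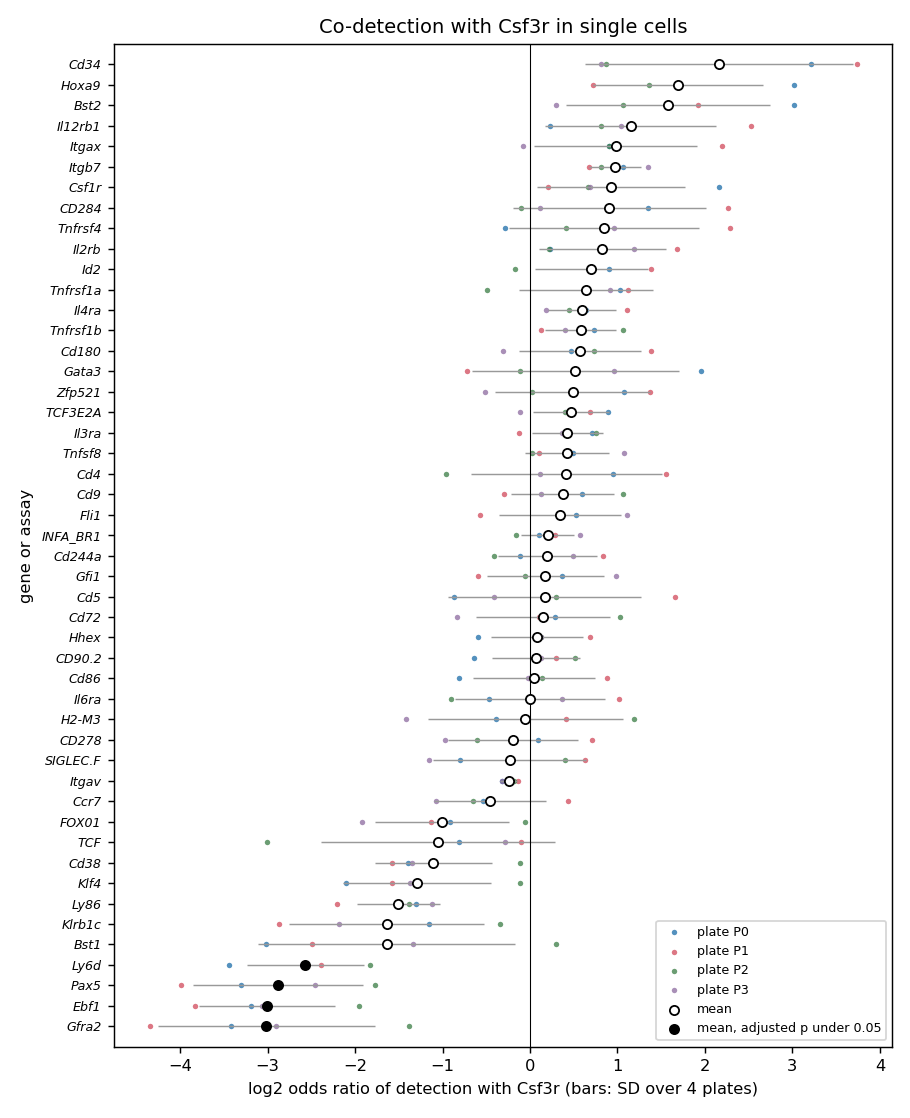
Log2 odds ratio of detection with Csf3r (horizontal axis) for the 48 other genes that entered, as small points per plate and as mean with SD over 4 plates; filled circles have a limma adjusted p under 0.05. The filled circles are Gfra2, Ebf1, Pax5 and Ly6d, between -3.02 and -2.57; Cd34 lies highest, at 2.16.

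At the other end of the order stood genes of early progenitors. Cd34, a surface sialomucin of stem and progenitor cells, was missing in 3 cells with Csf3r and in 16 without. Its log2 odds ratios were 3.21, 3.74, 0.87 and 0.81, with a mean of 2.16 ± 1.54 (limma, adjusted p = 0.0548). Hoxa9, a homeobox factor of multipotent cells, was found in 93.1% ± 3.08 of cells with Csf3r and 79.5% ± 5.98 of those without, and its log2 odds ratio averaged 1.69 ± 0.97 (limma, adjusted p = 0.0723). Both genes were positive on all plates and neither passed. Both passed with 1 in place of 0.5 added to each count, and when cells were split by their reference level. Cd34 also passed without P2. Without P0 neither passed (limma, adjusted p = 0.177 for Cd34 and 0.28 for Hoxa9), nor with the ordinary standard error of each pair. Fli1, the third of the 3 stem and multipotent genes that entered, had 0.35 ± 0.70. Kit was found in 98.8% ± 1.33 of cells with Csf3r and 96.0% ± 2.41 of those without, too many to enter.

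The remaining genes with the highest values on all plates were Bst2, Il12rb1 and Itgb7, and none passed. Bst2, an antigen of plasmacytoid dendritic cells, was found in 90.2% ± 5.78 of cells with Csf3r and 76.4% ± 3.79 of those without, with a log2 odds ratio of 1.58 ± 1.17 (limma, adjusted p = 0.118). Il12rb1, a chain of the receptors for IL-12 and IL-23, had 1.15 ± 0.98, from 66 and 41 cells. Itgb7, an integrin chain of gut-homing lymphocytes, had 0.97 ± 0.30 from only 17 and 9 cells. Of 4 dendritic genes that entered, 0 passed and 4 were positive on average, as were 31 of all 48 pairs of Csf3r, and their median was 0.95.

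Of the other haematopoietic cytokine receptors, 5 entered and 0 passed. Their median log2 odds ratio was 0.64. Csf1r, the receptor of the macrophage growth factor M-CSF, was found in 47 cells with Csf3r and 30 without, or 28.1% ± 4.78 against 17.1% ± 5.57. Its log2 odds ratios were 2.16, 0.21, 0.66 and 0.69, positive on each plate but highest on P0, with a mean of 0.93 ± 0.85 (limma, adjusted p = 0.34). Il2rb, a chain of the IL-2 and IL-15 receptors, had 0.83 ± 0.73 (31 and 19 cells), and Tnfrsf1a, a receptor of tumour necrosis factor, 0.64 ± 0.76 (64.8% and 54.0% of cells). Il3ra, which binds IL-3, had 0.43 ± 0.40 (36 and 29 cells). Il6ra, which binds IL-6, was shared as often as its share predicts: 29 cells had both products where 29.4 would follow, and its values of -0.47, 1.01, -0.91 and 0.36 took both signs. Kit and Il2rg, the common gamma chain, were found in nearly all cells of both classes.

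Of 8 further granulocyte and monocyte genes on the panel, 4 entered and 0 passed, and their median of 0.085 was close to that of all pairs. Besides Csf1r and Il6ra these were Gfi1 and Klf4. Gfi1, a repressor needed for neutrophil differentiation, was found in 75.7% ± 2.92 of cells with Csf3r and 72.8% ± 8.15 of those without, with a log2 odds ratio of 0.17 ± 0.67 (limma, adjusted p = 0.887). Klf4, a factor of monocytes, was found in 15 and 34 cells, with -1.29 ± 0.84 (limma, adjusted p = 0.165) and a negative value on all plates. Spi1 was found in 99.3% ± 1.35 of cells with Csf3r and in 98.4% ± 1.99 of cells without, so nearly all cells without Csf3r had a Spi1 product. Cebpa was found in 75 and 48 cells, 44.3% ± 4.64 against 27.2% ± 8.39, but also in 7 of 16 no-RT wells, and so did not enter the pairs. The same held for Fut4, which makes the SSEA-1 carbohydrate epitope (90.2% and 81.7% of cells, 12 no-RT wells), and for Cd68, a lysosomal protein of macrophages (88 and 94 cells, 11 no-RT wells).

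The share of Csf3r was also taken in classes of cells made from their B lineage products. These classes are combinations of products, and whether cells pass through them in sequence was not tested. Among 62 cells with none of Ebf1, Ly6d and Pax5, 53 had Csf3r: 81.3%, 90.9%, 81.0% and 92.9% on P0 to P3, a mean of 86.5% ± 6.28. Among 66 cells with only Ebf1 or only Ly6d, 45 had it, 66.4% ± 16.8, with P0 and P1 at 80% and 81.8% and P2 and P3 at 50% and 53.8%. Among cells with Ebf1 and Ly6d but not Pax5, which made up 37.2% of kept cells, 10 of 33, 15 of 32, 14 of 29 and 17 of 35 had it on P0 to P3, a mean of 43.5% ± 8.83. Among 90 cells with Pax5, 15 had it, 16.7% ± 9.44. Over plates, the range of the class with none of the 3 products overlapped that of the class with Ebf1 or Ly6d only, at 81.0% and 81.8%. The ranges of the other classes did not overlap, though they came close at 50% and 48.6% and at 30.3% and 28.6%. The order restates the negative pairs above and is no further support for them.

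**Figure D3:**
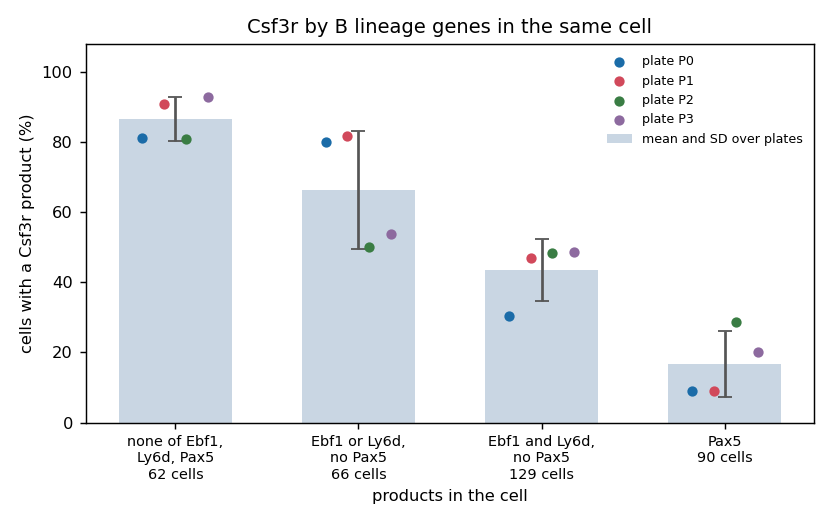
Share of kept cells with a Csf3r product (vertical axis, percent) in cells with none of Ebf1, Ly6d and Pax5, with Ebf1 or Ly6d only, with both but not Pax5, and with Pax5; points are plates, bars and lines the mean and SD over 4 plates. The means are 86.5%, 66.4%, 43.5% and 16.7%.

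Among cells without B lineage products, Csf3r was frequent both with and without Csf1r. Of 30 cells that had Csf1r and none of Ebf1, Ly6d and Pax5, 24 had Csf3r (80%), and of 32 cells that had none of these 4 products, 29 had it (90.6%), with 7 of 9, 6 of 6, 9 of 10 and 7 of 7 on P0 to P3. Some cells did hold Csf3r next to the full B lineage set: 12 of 87 cells with Ebf1, Ly6d and Pax5 had it (13.8%, exact 95% binomial interval 7.34% to 22.9%), on all plates, with 2, 2, 5 and 3 cells on P0 to P3. Of 61 cells with Gfra2 and Pax5, 6 had it (9.84%).

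The amount of a transcript in the cells that have it was not used in choosing Csf3r. It was compared as the median level within each plate, in cells with minus cells without Csf3r. The classes themselves were used in the choice and were known to differ in Ebf1, Ly6d, Pax5 and Gfra2. Pax5 was found in 8.77% of cells with Csf3r and 42.1% of cells without. The p-values of the levels are therefore not independent of the choice or of the pairs above. Of 55 genes with enough cells, 6 passed (10.9%) in limma at an adjusted p of 0.05, 3 higher (5.45%) and 3 lower (5.45%); at an unadjusted p of 0.05, 13 were higher and 5 lower. The median difference over all 55 was 0.15. With levels taken relative to the reference genes of the cell, that median fell by 0.17 to -0.01, and 0 genes passed as higher and the same 3 as lower.

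Where Ebf1 was present, its level was lower in cells with Csf3r. Its median Ct was 14.8, 14.4, 14.6 and 15.3 on P0 to P3 in cells with Csf3r, and 12.6, 13.3, 13.6 and 13.5 in cells without. The values of the classes do not overlap, and the difference in level of -1.53 ± 0.55 corresponds, at full efficiency, to 2.88-fold lower (limma, adjusted p = 0.0166). The assay named FOX01, which no table here ties to a gene, had median Cts of 15.1, 16.3, 15.9 and 16.1 against 14.0, 14.8, 15.4 and 15.0, lower by level on each plate though the ranges overlap (difference -1.05 ± 0.47, limma, adjusted p = 0.0184). Ly6d differed by -0.54 ± 1.14, with both signs among plates, and did not pass.

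Cd34 was higher in cells with Csf3r. Its median Ct was 17.5, 18.5, 17.9 and 18.0 in cells with Csf3r and 18.4, 21.0, 19.4 and 19.0 in cells without, earlier on each plate, with P1 furthest apart. The difference in level of 1.50 ± 0.73 corresponds to 2.83-fold (limma, adjusted p = 0.0184). Itgav, the integrin alpha V chain, was higher by 0.69 ± 0.31 and Selplg, the selectin ligand PSGL-1, by 0.61 ± 0.24 (limma, adjusted p = 0.037 for each). A Selplg product was present in every cell with Csf3r and in 93.8% ± 5.97 of those without. Relative to the reference genes the differences of Cd34, Itgav and Selplg were 0.99, 0.30 and 0.28, and none of them passed. Without P0 or without P3, none of the 6 genes passed, and without P1 Itgav and Selplg, among others, did not.

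**Figure D4:**
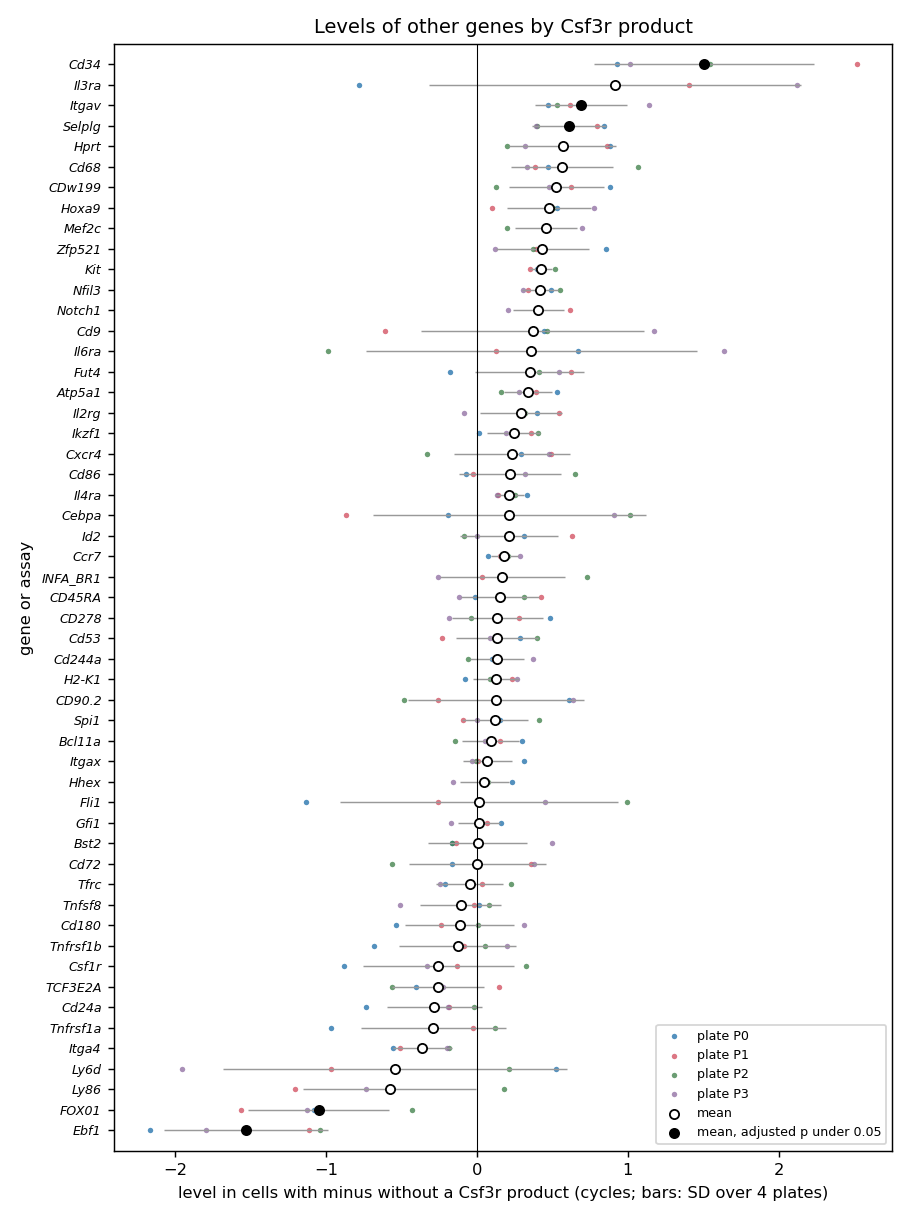
Difference in median level (horizontal axis, cycles) between cells with and cells without a Csf3r product, for the genes tested and reported here, as small points per plate and as mean with SD over 4 plates; filled circles have a limma adjusted p under 0.05. Filled circles are Ebf1 and FOX01 on the left, at -1.53 and -1.05, and Selplg, Itgav and Cd34 on the right, from 0.61 to 1.50.

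Among the receptors and myeloid genes, no level difference passed the test. Csf1r differed by -0.25 ± 0.50, Spi1 by 0.12 ± 0.22, Gfi1 by 0.01 ± 0.14 and Il6ra by 0.36 ± 1.10. Il3ra differed by 0.92 ± 1.23, the largest in either list, and was lower on P0. Kit was higher on all plates by 0.43 ± 0.07 (limma, adjusted p = 0.0596), and the reference gene Hprt by 0.57 ± 0.36 (limma, adjusted p = 0.0596). Of 7 granulocyte and monocyte genes tested for level, 6 were higher on average, with a median of 0.22, and of 6 cytokine receptors 4 were, with a median of 0.33. Of all 55 genes 41 were, with a median of 0.15, so these counts are near the background. The 7 include Cebpa, Fut4 and Cd68, which also had products in no-RT wells.

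Level differences were also taken within cells picked by their B lineage products. For the genes named here they were smaller in size than over all kept cells. Whether the B lineage state accounts for this was not tested. Within the cells with Ebf1 and Ly6d but not Pax5, 0 of 49 genes passed in limma and 1 had an unadjusted p under 0.05. Genes there needed only 3 cells per class on every plate. The differences there were -0.39 for Ebf1, -0.16 for FOX01, 0.29 for Cd34 and 0.22 for Selplg. Within all cells without Pax5, 0 of 49 genes passed and 9 had an unadjusted p under 0.05, with differences of -0.87 for Ebf1 and 0.60 for Cd34. These comparisons hold fewer cells and were added after the data were seen.

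No difference in the level of Csf3r itself with another product passed the test. Among cells with Csf3r, 30 genes could be compared, 0 passed in limma (0%; lowest adjusted p = 0.649), and 2 were higher at an unadjusted p of 0.05. These were Itgax (CD11c), a surface integrin of dendritic cells, with 0.53 ± 0.42, and Zfp521, a zinc finger factor of early progenitors, with 0.52 ± 0.33. The Csf3r level differed by -0.16 ± 0.67 with Ebf1, -0.31 ± 0.25 with Ly6d, 0.20 ± 0.25 with Csf1r, 0.42 ± 0.32 with Cebpa (products also in 7 of 16 no-RT wells) and 0.33 ± 0.28 with Gfi1. Over the 30 genes the differences ran from -0.47 for Ly86 to 0.53 for Itgax, with a median of 0.05.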

How the data were processed

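The authors deposited Ct values without normalization for 384 wells and 96 assays, per the labels; which software and threshold set the Ct is not stated in what was used here. Each cell was lysed in its well and its cDNA made and pre-amplified there with the 96 assays together, then read on a Fluidigm chip, per the labels' protocols. Columns were tied to samples by title. Assay names were matched to a RefSeq gene table of GRCm38.p6, used for names: 47 by symbol, 34 by synonym (CD114 to Csf3r among them) and 15 not, which keep the file's name. A missing product means only that the transcript was not detected at a sensitivity not known per assay.

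A Ct below 28 counted as a product, and 28 minus Ct as the level. Cells were kept if more than 50% of the 4 reference genes gave a product and the number of assays reached 50% of the plate median. Log2 odds ratios within a plate had 0.5 added to each count; pairs were formed from genes found in 5% to 95% of cells and under 4 no-RT wells. Levels were compared for genes with at least 5 cells per class on every plate. Within the cells with Ebf1 and Ly6d but not Pax5, at least 3 were needed. Plates (n = 4) were the replicates, and each difference was taken within a plate. Differences and log2 odds ratios were tested against 0 by intercept-only models in limma 3.58.1 (R 4.3.3) with eBayes, adjusted by Benjamini-Hochberg over all genes or pairs fitted. The fits of the pairs and of the levels of other genes were also run on simulated data. The effects planted there were larger than those found here. The fit of the Csf3r level was not simulated. Limits for 0 wells use 3 counts.

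The gene, the gene lists and the tests were chosen with earlier results of these data known. Genes named are those with a called pair, the 5 highest and 5 lowest pairs with the same sign on 4 plates, up to 5 called genes per direction in each test of levels, measured members of the cytokine receptor and granulocyte and monocyte lists, and Ebf1, Ly6d and Pax5; other genes were chosen after their values were seen. A few genes within the rule stay in the counts and are not reported here. The lists of T lymphoid, innate lymphoid with NK, erythroid with megakaryocyte, and lymphoid priming genes had 3, 4, 2 and 1 members in the pairs, 0 called, and medians of 0.41, 0.45, 0.40 and -0.46. Alternatives changed the Ct limit for a product, the filters, the added count, the scaling, the plate as a block, the moderation, and left out each plate.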

Additional observations from a re-analysis of the deposited data

Results flagged for a closer look

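Over 33 sets of 4 plate values, 3 had a plate far from the others; chance gives about 1 in 20 such sets. The Csf3r Ct of the 10-cell wells was 40, no product, on P0, against 17.5, 16.2 and 15.8 on P1 to P3. The share of Csf3r in cells with Ebf1 and Ly6d but not Pax5 was 30.3% on P0, against 46.9%, 48.3% and 48.6%; without P0 the mean is 47.9% ± 0.906. The log2 odds ratio of Csf3r with Tnfrsf1a was -0.50 on P2, against 1.03, 1.12 and 0.91 on P0, P1 and P3.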

How the results depend on the processing

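The number of negative pairs that passed, 4, was 7 with 1 added to each count and with cells split by reference level. It was 0 without limma's moderation, and leaving out a plate gave 1 to 5. Ebf1 passed whichever plate was left out. Over its alternatives the adjusted p ran from 9.74e-05 to 0.227 for Ebf1, 0.000219 to 0.31 for Gfra2, 0.000219 to 0.242 for Pax5 and 0.000353 to 0.227 for Ly6d, all negative throughout. The number of positive pairs that passed, 0, was 3 with 1 added and with cells split by number of assays. It was also 3 with genes in 1% to 99% of cells. It was 2 with cells split by reference level, 1 with genes in 10% to 90% of cells or at a Ct below 24, 10 without quality control, and 0 to 1 when a plate was left out. The 3 genes with higher levels became 7 with means, 5 at a Ct below 26, 11 with at least 10 cells per class, 0 relative to the reference genes, and 0 to 5 without a plate; the 3 lower became 0 to 4 without a plate. In cells with Ebf1 and Ly6d but not Pax5, and in cells without Pax5, both counts were 0. Without the plate as a replicate block, 0 genes were higher and 1 lower (Ebf1), and the differences in assays per cell (-0.375) and reference level (0.221) had exact permutation p-values of 0.629 and 0.286. The difference in assays per cell turned to 0.258 with means and 0.125 without quality control. The share of Csf3r in cells with none of the B lineage products was 71.8% without quality control. Test counts of the Csf3r level stayed at 0 under every alternative run. Depth is not known per assay, so a missing product is a limit of detection, and 4 plates limit every p.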
